A study of Arabidopsis thaliana with 6 samples.

Results

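The xyloglucan endotransglucosylase/hydrolase (XTH) family of Arabidopsis thaliana was followed gene by gene in seedlings mutant in all 5 SIN3-LIKE (SNL) genes. The members are the 33 loci XTH1 to XTH33, taken by locus from the 33602 loci counted in each library. RNA came from shoots (all organs above ground) of plants aged 11 days in the Col-0 background, in 2 groups of 3 biological replicates each: a quintuple mutant of SNL1 to SNL5, written snl1/2/3/4/5, and wild type. SNL genes encode the plant counterparts of Sin3, a protein that holds histone deacetylase complexes together. All plants grew in days with 16 h of light and 8 h of darkness and were collected at ZT5, which is 5 h after lights on. The alleles that make up the mutant are not named in the labels.

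Xyloglucan is a branched glucan that coats and ties together cellulose microfibrils in the primary cell wall. XTH enzymes cut its backbone and either join the new end to another xyloglucan chain (endotransglucosylase activity) or to water (hydrolase activity), and through this they take part in wall loosening, wall strengthening and the building of new wall. The family numbering follows the protein tree, in which XTH1 to XTH11 are usually placed in group 1, XTH12 to XTH26 in group 2 and XTH27 to XTH33 in group 3. Within group 3, XTH31 and XTH32 belong to the branch known for hydrolase activity. Several members are known for expression in 1 organ, such as XTH14 and XTH26 in root hairs, and XTH22 is better known as TCH4, a gene induced by touch, darkness and brassinosteroids.

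The family is defined by its active site, so its coding DNA is shown for members on which the results turn. In 32 of the 33 members the RefSeq coding sequence of assembly TAIR10.1, matched by locus, held a single stretch of 9 codons for this motif, and no 2 members had the same 27 bases. XTH11 had no match to the search pattern. The capitals mark codons 2, 4 and 6, which encode the acidic residues of the catalytic site, and each stretch is written 5′ to 3′ on the coding strand.
XTH31: gatGAGgtcGATatcGAGtttctaggg
XTH32: gatGAGgtaGACataGAAtttttgggg
XTH30: gacGAGttaGACataGAGtttctaggg
XTH4: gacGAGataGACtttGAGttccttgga
XTH7: gacGAGcttGATtttGAGttcttagga
XTH9: aacGAAttcGATtttGAGttcttaggg
XTH19: gatGAGattGATttcGAGtttttgggg
XTH18: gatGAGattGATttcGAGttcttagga
XTH22: gacGAGataGATttcGAGtttttaggg
The search pattern required glutamate at codons 2 and 6, so GAA or GAG there was fixed by the search and is no finding. It left codon 4 free, and that codon was GAT or GAC in all 32 members with a match. The pattern also limited the residues allowed at codon 5 and at the opening codon, so their counts hold within those limits. Codon 5 was TTT or TTC in 27 members and ATA or ATC in 5, which are XTH29 to XTH33. XTH9 was the single member that opened with AAC, where 15 members had GAC and 16 had GAT.

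Total counts were 12622416 to 15774357 in mutant libraries and 13064598 to 15194748 in wild-type libraries. The 5 mutated genes were lower in every mutant library, by 1.89-fold for SNL5 to 23.7-fold for SNL2 (edgeR), and reads of all 5 were still found there. Mutant replicate 3 stood apart with 7.57 CPM of SNL2, against 2.32 and 2.645 CPM in mutant replicates 1 and 2. It was also higher for SNL3 (7.04, against 2.55 and 2.015 CPM) and SNL4 (14.8, against 8.51 and 7.43 CPM). For SNL1 it had 26.4 CPM, against 20.7 and 19.0 CPM, and for SNL5 it was close to the others (26.6, against 26.4 and 24.8 CPM). The counts of calls and the values of several members are therefore given with and without mutant replicate 3. Levels below are CPM, read counts brought to a common library size, with library totals scaled by TMM, and "passed" means an adjusted p below 0.05 in edgeR's quasi-likelihood test with Benjamini-Hochberg adjustment over all 19591 tested genes. The 4 leaf markers (RBCS1A, RCA, CAB1 and GAPA) summed to 32550 to 41130 CPM in the mutant and 34160 to 37550 CPM in wild type, and 0 of the 4 passed the test. CAB1 supplied most of this sum, with means of 20760 CPM in the mutant and 20380 CPM in wild type. Its transcript is 96.1% identical to those of AT1G29910 over 836 bp and AT1G29920 over 823 bp, so their reads may not be fully separated. The 6 root hair markers (EXPA7, EXPA18, COBL9, PRP3, LRX1 and RHD6) were present at a low level in every library although the tissue is labelled aerial. They summed to 25.6 to 43.5 CPM in the mutant and 38.2 to 38.6 CPM in wild type, and 0 of the 6 passed. Of the 4 floral organ markers, AP1 had 1 mutant read and 0 wild-type reads, AG stayed under 1 CPM in every library, and PISTILLATA (PI) rose 6.29-fold to 17.5 ± 6.53 CPM in the mutant, against 2.80 ± 0.757 CPM in wild type (SD, n = 3 each, adjusted p = 0.000667). AP3, also under 1 CPM, had 11, 6 and 10 reads in the mutant and 2, 2 and 1 reads in wild type, without overlap, and fell under the count filter. With no filter on low counts it passed as higher (adjusted p = 0.0128, edgeR). It also met the filter on leaving out any 1 wild-type library or mutant replicate 2, through its mutant reads alone. The calls in those settings are therefore no further support. The part of floral or root cells in the XTH results was not tested. These libraries are bulk tissue, so a difference in cell make-up and a difference in RNA per cell cannot be told apart.

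Of the 33 members, 29 had enough reads to be tested. In the mutant 10 rose, 1 fell and 18 did not pass. The members that rose were XTH31, XTH19, XTH17, XTH4, XTH7, XTH8, XTH32, XTH16, XTH9 and XTH30, and XTH22 fell. Over all tested genes 34.8% were called, 18.3% higher and 16.5% lower, while the members that rose were 34.5% of the tested family and the member that fell was 3.45%. Changes of at least 2-fold were found in 7 members, all higher, where 3.93% of all tested genes rose and 2.45% fell by that much. The median log2 fold change was 0.27 over the 29 tested members and 0.00 over all tested genes. These shares describe the list and carry no test of it.

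**Figure D1:**
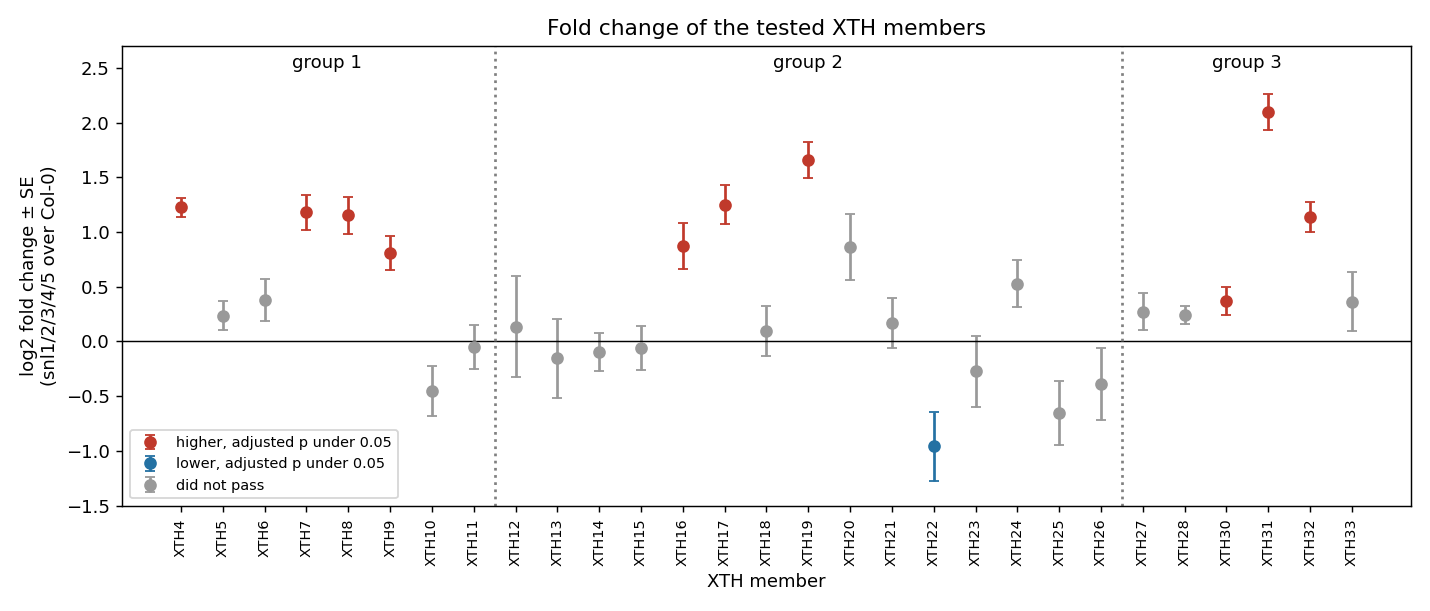
Log2 fold change (snl1/2/3/4/5 over Col-0) with its standard error for the 29 tested XTH members in order of family number, with dotted lines between groups 1, 2 and 3. Red points passed as higher, the blue point (XTH22, at -0.96) passed as lower and grey points did not pass; XTH31 has the highest value, 2.10.

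Without mutant replicate 3, 10 members rose, with XTH20 in the place of XTH30, and 3 fell, as XTH23 and XTH25 joined XTH22. Calls over all tested genes also grew, to 3806 higher and 3511 lower of 19952. With all libraries they were 3587 higher and 3224 lower of 19591. Of the 11 called members, 9 kept their call in all 13 alternative settings (other scalings, filters and tests, and each library left out in turn). The exceptions were XTH30 and XTH22. The mutant and wild-type libraries did not overlap in 14 of the 29 tested members, which is 48.3%, beside 49.8% of all tested genes. Every mutant library was above every wild-type library in 12 members (41.4%) and below in 2 (6.90%), where all tested genes had 25.2% above and 24.6% below. Of the called members, XTH30 alone had overlapping groups.

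Group 3 held the largest change. XTH31 (AT3G44990), which has been linked to hydrolase activity and to aluminium response through wall xyloglucan, had 76.2, 71.5 and 50.4 CPM in mutant replicates 1 to 3, against 14.1, 14.7 and 17.6 CPM in wild-type replicates 1 to 3. Every mutant library was well above every wild-type library, with replicate 3 the lowest of the mutant ones. The log2 fold change was 2.10 ± 0.16 (SE), which is 4.28-fold, with an adjusted p of 0.000201 (edgeR quasi-likelihood test). XTH32 (AT2G36870), of the same branch, had 19.4, 25.95 and 25.6 CPM in the mutant, against 11.9, 9.575 and 10.85 CPM in wild type. Its libraries also separated by genotype, at 2.2-fold and an adjusted p of 0.000862 (edgeR).

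XTH30 (AT1G32170) had 78.6, 59.95 and 76.6 CPM in the mutant, against 48.7, 56.1 and 61.6 CPM in wild type, and rose 1.29-fold. Mutant replicate 2 lay below wild-type replicate 3, so the groups overlapped. Its adjusted p was 0.0474 and became 0.155 and 0.0991 when wild-type replicates 1 and 2 were left out, 0.115 and 0.101 when mutant replicates 1 and 3 were, and 0.0511 on unscaled library totals (edgeR, range over the alternatives 0.0216 to 0.155). The other tested members of group 3 did not pass. XTH27, known from the development of tracheary elements in leaf veins, had 179, 201 and 279 CPM in the mutant and 184, 207 and 154 CPM in wild type. Its groups overlapped, and its log2 fold change was 0.27, or 0.063 without mutant replicate 3. XTH28, known from stamen filaments, had 51.4, 58.5 and 53.5 CPM in the mutant and 48.7, 47.1 and 42.6 CPM in wild type. Its groups did not overlap, and its adjusted p was 0.0536, or 0.0409 without mutant replicate 1 (edgeR, range 0.0409 to 0.1685 over the alternatives). XTH33, which is anchored at the plasma membrane, stayed between 1.37 and 2.98 CPM in all 6 libraries.

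In group 1, 4 of 8 tested members rose and 0 fell, beside 18.3% higher and 16.5% lower over all tested genes. XTH4 (AT2G06850), also called EXGT-A1, a transglucosylase studied in stems and developing wood, was the group's most abundant gene. It had 1025, 880 and 1014 CPM in the mutant, against 438, 415 and 395 CPM in wild type. The mutant libraries lay more than their own spread above wild type, with a fold of 2.34 and the smallest adjusted p of the family, 0.000171 (edgeR). XTH7 (AT4G37800) had 226.5, 312 and 357 CPM in the mutant and 139, 142 and 114 CPM in wild type. Mutant replicate 1 was the lowest mutant library for XTH7 and still above every wild-type library (2.26-fold, adjusted p = 0.00147, edgeR). XTH8 (AT1G11545) had 48.0, 44.5 and 41.1 CPM in the mutant and 22.2, 23.5 and 14.1 CPM in wild type, a 2.23-fold difference (adjusted p = 0.00184). XTH9 (AT4G03210), which like XTH4 has been studied in stems and wood, had 181.0, 181.2 and 162 CPM in the mutant and 104.0, 121 and 73.8 CPM in wild type. For XTH8 and XTH9 wild-type replicate 3 was the lowest library, and XTH9 rose 1.75-fold (adjusted p = 0.00595, edgeR).

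The other tested members of group 1 did not pass. XTH6, among the 5 members with the highest level per length, had 225, 241 and 368 CPM in the mutant and 214, 246 and 181 CPM in wild type, with overlapping groups and an adjusted p of 0.149 (edgeR). Its log2 fold change was 0.38, or 0.13 without mutant replicate 3. XTH5 averaged 14.5 ± 2.58 CPM in the mutant and 12.3 ± 0.609 CPM in wild type (SD, n = 3 each). XTH10 had 1.16 to 1.45 CPM in the mutant and 1.67 to 2.12 CPM in wild type, without overlap but with an adjusted p of 0.152 (edgeR). XTH11 had 1.76 to 2.40 CPM in the mutant and 2.16 to 2.20 CPM in wild type.

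**Figure D2:**
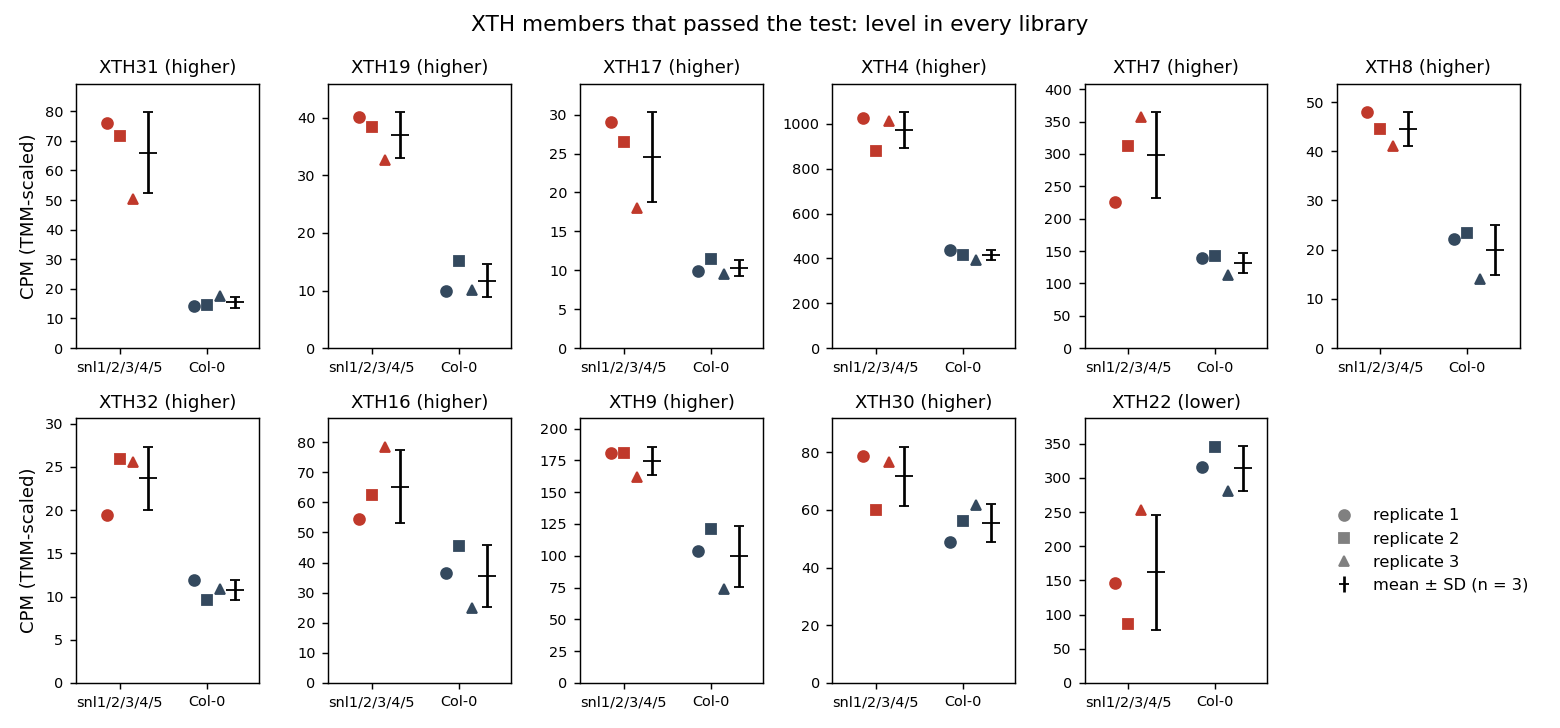
CPM in each of the 6 libraries for the 11 XTH members that passed the test, in order of fold change, with the 3 snl1/2/3/4/5 libraries (red) left of the 3 Col-0 libraries (dark) in each panel; bars are the mean ± SD (n = 3) and each axis starts at 0. The groups are separate in all panels except XTH30, and for XTH22 the mutant libraries are below wild type, with mutant replicate 3 the nearest at 253 CPM.

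In group 2, the largest, 3 of 15 members rose, a share near the 18.3% of all tested genes, 1 fell (6.67%, beside 16.5%) and 11 did not pass. XTH19 (AT4G30290), which with XTH20 is known from tissue reunion in cut stems, had 40.2, 38.35 and 32.6 CPM in the mutant, against 9.99, 15.1 and 10.1 CPM in wild type. The lowest mutant library was more than double the highest wild-type library in level, and the fold was 3.15 (adjusted p = 0.00041, edgeR). XTH17 (AT1G65310), which has been linked to aluminium response together with XTH31, had 29.1, 26.5 and 18.05 CPM in the mutant and 9.92, 11.5 and 9.56 CPM in wild type. Replicate 3 was again the lowest of the mutant libraries without reaching wild type (2.38-fold, adjusted p = 0.00156, edgeR). XTH16 (AT3G23730) had 54.6, 62.6 and 78.5 CPM in the mutant and 36.6, 45.4 and 24.8 CPM in wild type. Here replicate 3 was the highest mutant and the lowest wild-type library, and the fold was 1.83 (adjusted p = 0.0137, edgeR).

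XTH22 (TCH4, AT5G57560) had 146, 86.5 and 253 CPM in the mutant, against 316, 346 and 280 CPM in wild type. All mutant libraries were below all wild-type libraries, but mutant replicate 3 was near to them and the mutant libraries differed about as much among themselves as the groups did. The fold was 1.94 lower in the mutant, with a log2 fold change of -0.96 ± 0.32 (SE) and an adjusted p of 0.0457 (edgeR). Leaving out any 1 of the other 5 libraries ended the call: the adjusted p was 0.1045 and 0.0748 without mutant replicates 1 and 2, and 0.109, 0.110 and 0.0694 without wild-type replicates 1 to 3. Without mutant replicate 3 it was 0.00207, with a log2 fold change of -1.43. In the DESeq2 test it was 0.0883, and over all alternatives it ranged from 0.00207 to 0.110.

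XTH23, whose transcript is 81.9% identical to that of XTH22 over 807 bp, and XTH25, the neighbour of XTH22 on the chromosome, varied between mutant libraries in the same order. XTH23 had 16.6, 9.57 and 28.15 CPM in the mutant and 22.9, 24.5 and 17.6 CPM in wild type. XTH25 had 6.35, 3.21 and 8.57 CPM in the mutant and 9.86, 9.98 and 8.27 CPM in wild type. For all 3 genes mutant replicate 2 was the lowest library and mutant replicate 3 the highest mutant one. Neither XTH23 nor XTH25 passed with all libraries (adjusted p = 0.543 and 0.111, edgeR), and both passed without mutant replicate 3 (0.0388 and 0.0193, with log2 fold changes of -0.74 and -0.9985). Their adjusted p ranged from 0.0388 to 0.897 and from 0.0193 to 0.238 over the alternatives.

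TCH4 takes its name from the touch genes, of which the others encode calmodulin or calmodulin-like proteins. CML12 (TCH3) had 175, 92.4 and 213 CPM in the mutant and 471, 278 and 731 CPM in wild type. It fell 3.08-fold without overlap (adjusted p = 0.0119, edgeR), with mutant replicate 2 again the lowest library. Part of the CML12 sequence is also annotated at other loci, and so is part of the sequences of CAM2 and CML24. CAM2 (TCH1) averaged 51.3 ± 4.596 CPM in the mutant and 46.4 ± 2.14 CPM in wild type, and CML24 (TCH2) averaged 98.8 ± 16.2 CPM in the mutant and 85.4 ± 9.58 CPM in wild type (SD, n = 3 each). Neither passed the test (adjusted p = 0.221 and 0.231, edgeR), so of the 3 other touch genes 0 rose and 1 fell, where 34.8% of all tested genes were called.

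XTH24 (AT4G30270), also named MERI5 after its expression in meristems, was the most abundant member per length. It had 857, 812 and 1477 CPM in the mutant, against 731, 807 and 644 CPM in wild type. The lowest mutant library was just above the highest wild-type library, and mutant replicate 3 stood far above the rest. Its log2 fold change was 0.53 ± 0.22 (SE, adjusted p = 0.0888, edgeR) and 0.20 without mutant replicate 3 (adjusted p = 0.159), within a range of 0.0323 to 0.217 over the alternatives, the lowest in the DESeq2 test. XTH15, known from shade-induced petiole growth, had 110, 75.4 and 137 CPM in the mutant and 121.5, 121.9 and 91.7 CPM in wild type, with overlapping groups. A locus on the opposite strand, AT4G14120, overlaps XTH15, so reads of the pair may not be fully separated. XTH20, whose transcript is 84.1% identical to that of XTH19 over 872 bp, had 6.50, 3.97 and 2.91 CPM in the mutant and 2.71, 1.96 and 2.66 CPM in wild type. Its groups did not overlap and its adjusted p was 0.05595 (edgeR). It passed in 4 of 13 alternatives, with 0.0156 without mutant replicate 3 (range 0.0156 to 0.154).

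The members known from root hairs, XTH14 and XTH26, and the neighbours XTH12 and XTH13 did not pass. XTH14 had 18.9, 12.1 and 11.9 CPM in the mutant and 14.9, 14.8 and 16.0 CPM in wild type. XTH26 had 2.71, 1.32 and 1.07 CPM in the mutant and 2.18, 2.23 and 2.20 CPM in wild type. XTH12 had 0.841 to 4.10 CPM in the mutant and 1.65 to 2.504 CPM in wild type, and for XTH13 the ranges were 0.841 to 2.71 CPM in the mutant and 1.82 to 2.20 CPM in wild type. All 4 genes had their highest level in mutant replicate 1 and their lowest in mutant replicate 3. This order was not particular to them, as XTH11 and XTH21 had it too. Among the 29 tested members, replicate 1 was the highest of the mutant libraries in 14 and replicate 3 the lowest in 12. Summed over XTH12, XTH13, XTH14 and XTH26, the level was 28.4, 17.4 and 14.7 CPM in mutant replicates 1 to 3 and 20.8, 21.1 and 22.9 CPM in wild-type replicates 1 to 3. The summed level of the 6 root hair markers was in the same order in the mutant libraries (43.5, 32.7 and 25.6 CPM) and nearly level in wild type (38.6, 38.5 and 38.2 CPM). Singly, COBL9, PRP3 and LRX1 had that order, and EXPA7, EXPA18 and RHD6 did not. Without mutant replicate 1, XTH14 and XTH26 passed as lower (adjusted p = 0.0315 and 0.0299, edgeR), in ranges of 0.0315 to 0.958 and 0.0299 to 0.717. In that setting 2 of the 6 markers passed as lower, PRP3 (adjusted p = 0.0199, range 0.0199 to 0.982) and LRX1 (0.0137, range 0.0137 to 0.166). The other 4 did not pass, with log2 fold changes of -0.24 for COBL9, -0.61 for RHD6, 0.10 for EXPA7 and 0.14 for EXPA18. XTH21, a gene of root growth, had 2.68 to 4.95 CPM in the mutant and 3.24 to 3.57 CPM in wild type, and shares a stretch of 168 bp at 98.2% identity with the pseudogene AT2G12660.

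Members under the count filter had almost no reads. XTH1 and XTH3 had 0 reads in all 6 libraries, which allows up to 0.0715 CPM in the mutant and 0.0695 CPM in wild type when 3 reads over a group are taken as the limit. XTH2 had 0 reads in the mutant and 3, 1 and 0 reads in wild-type replicates 1 to 3, and its exact (Clopper-Pearson) 95% counting interval for the ratio of mutant to wild type ran from 0 to 1.56. XTH29 had 2, 3 and 0 reads in the mutant and 2, 0 and 6 reads in wild type, a ratio of 0.643 with an interval from 0.1655 to 2.23. The 2-sided exact permutation p over the 6 libraries was 0.4 for XTH2 and 0.9 for XTH29, where 3 against 3 libraries cannot go below 0.1. These intervals and limits pool the reads of the 3 libraries in a group. They hold for counting error alone and leave out the spread between libraries. No molecular identifiers are named that would tell PCR copies apart, so counting error itself may be larger.

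Several members lie next to each other in the genome, and these neighbours did not all have the same result. XTH24, XTH18 and XTH19 are adjacent loci on chromosome 4, and XTH18 had 43.3, 25.8 and 53.6 CPM in the mutant and 33.7, 38.6 and 42.3 CPM in wild type (adjusted p = 0.769, edgeR). Reads of XTH19 per read of XTH18 within a library were 0.927, 1.485 and 0.608 in the mutant, against 0.297, 0.391 and 0.239 in wild type. The ratio was higher in every mutant library, and the 2-sided exact permutation p of 0.1 is the smallest that 3 against 3 libraries can give (0.3 after Benjamini-Hochberg adjustment over 6 neighbour pairs). XTH18 and XTH19 transcripts are 85.8% identical over 1120 bp, and XTH17, on chromosome 1, is 90.7% identical to XTH18 over 1225 bp, so none of them is a near-identical copy at 95% identity.

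On chromosome 5, XTH12, XTH13, XTH25 and XTH22 form an array on the same strand, with 1 other counted locus between XTH12 and XTH13. Reads of XTH22 per read of XTH25 were 23.1, 26.9 and 29.5 in the mutant, against 32.03, 34.6 and 33.9 in wild type (2-sided exact permutation p = 0.1, adjusted 0.3). Reads of XTH25 per read of XTH13 were 2.34, 1.7 and 10.2 in the mutant, against 4.81, 5.48 and 3.76 in wild type, a wide spread in which the groups overlapped (p = 0.6, exact permutation test, adjusted 0.72). The ratios of XTH13 to XTH12, XTH24 to XTH18 and XTH23 to XTH14 also overlapped between groups, with exact permutation p of 0.6, 0.3 and 0.8 (adjusted 0.72, 0.6 and 0.8).

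Per length, a few members supplied most XTH transcripts. XTH24, at 867 ± 307 CPM per kb of exon in the mutant and 601 ± 67.4 CPM per kb in wild type, was first in both genotypes, and XTH4, at 602 ± 49.9 CPM per kb in the mutant and 258 ± 13.4 CPM per kb in wild type, was the next (SD, n = 3 each). The next levels in the mutant were XTH7 (232 CPM per kb), XTH6 (189), XTH27 (142), XTH9 (114.5) and XTH22 (102). In wild type they were XTH22 (197), XTH6 (145.5), XTH27 (117.5), XTH7 (102) and XTH15 (92.6). The 3 highest members together made up 62.6% of the family level in the mutant and 58.2% in wild type. As a share of the family, XTH22 took 3.71%, 2.33% and 4.80% in mutant replicates 1 to 3, against 10.7%, 10.9% and 10.9% in wild type, and XTH4 took 25.6%, 23.3% and 18.95% in the mutant, against 14.7%, 12.9% and 15.1% in wild type. For both genes the shares did not overlap between genotypes. A share also depends on the family total, which was higher in every mutant library than in any wild-type library. Shares of XTH6, XTH15 and XTH27, which did not pass, were also lower in the mutant without overlap. XTH27 had 4.661%, 5.564% and 5.458% in the mutant, against 6.432%, 6.731% and 6.18% in wild type. The share of XTH22 therefore does not measure the change in its level, a 1.94-fold fall.

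**Figure D3:**
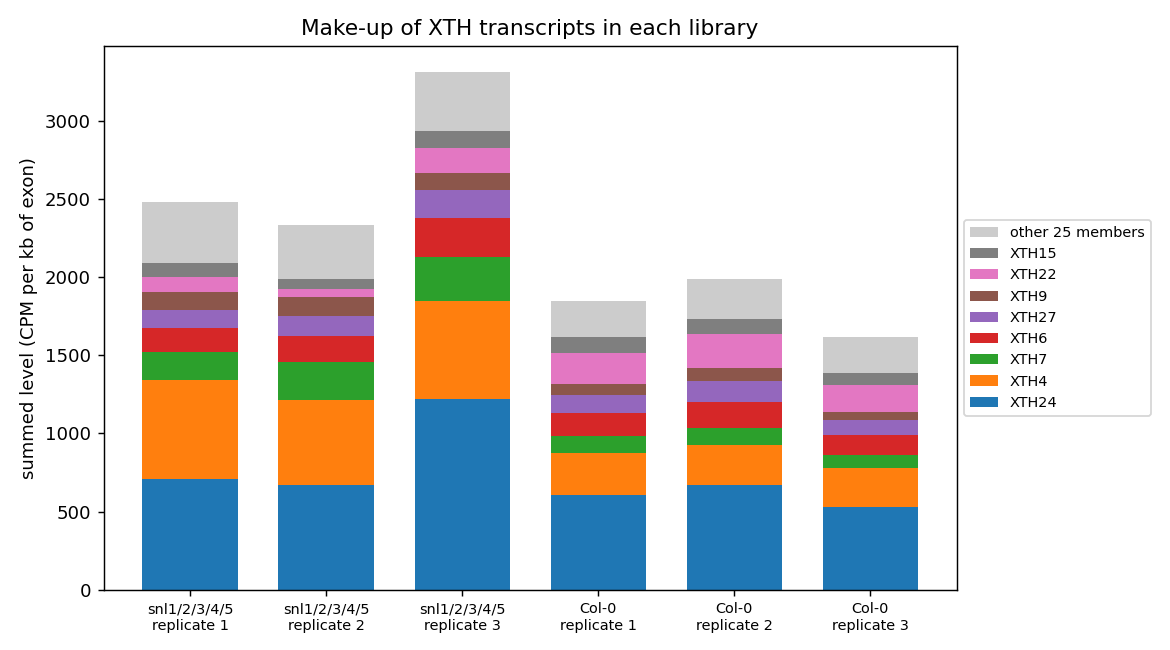
Summed level of the 33 XTH members in each library, in CPM per kb of exon, stacked by member for the 8 named genes and with the other 25 members in grey, with the 3 snl1/2/3/4/5 libraries on the left. The totals are 2482, 2335 and 3312 CPM per kb in the mutant and 1849, 1988 and 1616 CPM per kb in wild type, and the XTH22 segment is thinner and the XTH4 segment thicker in each mutant library.

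Summed over all 33 members, the level was 3477, 3260 and 4553 CPM in the mutant, against 2562, 2746 and 2240 CPM in wild type. Every mutant library was above every wild-type library, with a ratio of means of 1.496, and mutant replicate 3 was the highest. The sum of group 1 was 1787 ± 151 CPM in the mutant and 897.5 ± 90.85 CPM in wild type (SD, n = 3 each), a ratio of 1.99. XTH4 alone averaged 973 CPM of this in the mutant and 416 CPM in wild type. Without XTH4 the ratio over the whole family was 1.33. Group 2 summed to 1343, 1165 and 2107 CPM in the mutant and 1318, 1446 and 1158 CPM in wild type, with overlap. Group 3 summed to 438 ± 44.0 CPM in the mutant and 312 ± 23.7 CPM in wild type. By mean level, 8 members in the mutant and 7 in wild type reached 100 CPM, 12 in the mutant and 13 in wild type lay between 10 and 100 CPM, and 9 in each lay between 1 and 10 CPM.

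The other genes of the xyloglucan pathway were taken as a list of 20, and all 20 were tested. In the mutant 8 rose, 2 fell and 10 did not pass, beside 18.3% higher and 16.5% lower over all tested genes, and the median log2 fold change was 0.24. Leaving out mutant replicates 2 and 3 gave 7 higher and 0 lower and 9 higher and 1 lower genes. For wild-type replicates 1, 2 and 3 left out in turn, these counts were 5 and 0, 5 and 1, and 8 and 1. The counts carry no test of the list.

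Among synthesis genes, XLT2, a galactosyltransferase that decorates the xyloglucan side chains, had the largest rise. It had 28.1, 33.9 and 28.5 CPM in the mutant, against 13.96, 13.89 and 14.04 CPM in wild type. The wild-type libraries were nearly identical and the mutant ones all about double in level (2.16-fold, adjusted p = 0.000273, edgeR). CSLC4, the main synthase of the glucan backbone, rose 1.62-fold to 118.5 ± 18.8 CPM in the mutant, against 73.1 ± 3.01 CPM in wild type (SD, n = 3 each, adjusted p = 0.00262). XXT2, a xylosyltransferase, rose 1.299-fold (adjusted p = 0.00365), and AXY4, which acetylates xyloglucan, rose 1.69-fold (adjusted p = 0.00965, edgeR). CSLC6 rose 1.21-fold (adjusted p = 0.0152), and the galactosyltransferase gene MUR3 rose 1.23-fold (adjusted p = 0.0459).

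The genes that fell were weakly expressed relatives. CSLC12 had 2.63, 2.20 and 1.84 CPM in the mutant and 3.37, 4.38 and 3.19 CPM in wild type, 1.64-fold lower in the mutant (adjusted p = 0.0308, edgeR). XXT3 had 1.32, 0.756 and 1.22 CPM in the mutant and 2.65, 1.69 and 2.35 CPM in wild type, 2.05-fold lower in the mutant (adjusted p = 0.0255, edgeR). MUR3 kept its call in 4 of 13 alternatives, of which leaving out mutant replicate 3 was 1 (adjusted p 0.0423 to 0.128 over them). For CSLC12 the adjusted p became 0.0709 and 0.106 on leaving out wild-type replicates 1 and 2, 0.0936 and 0.06875 on leaving out mutant replicates 2 and 3, and 0.0624 in the DESeq2 test (0.0282 to 0.106 over the alternatives). For XXT3 it became 0.103 and 0.0701 on leaving out wild-type replicates 1 and 3 and 0.0953 on leaving out mutant replicate 2 (0.0238 to 0.103). For CSLC6 it became 0.0508 and 0.0566 on leaving out wild-type replicates 1 and 2 (0.0139 to 0.0566).

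**Figure D4:**
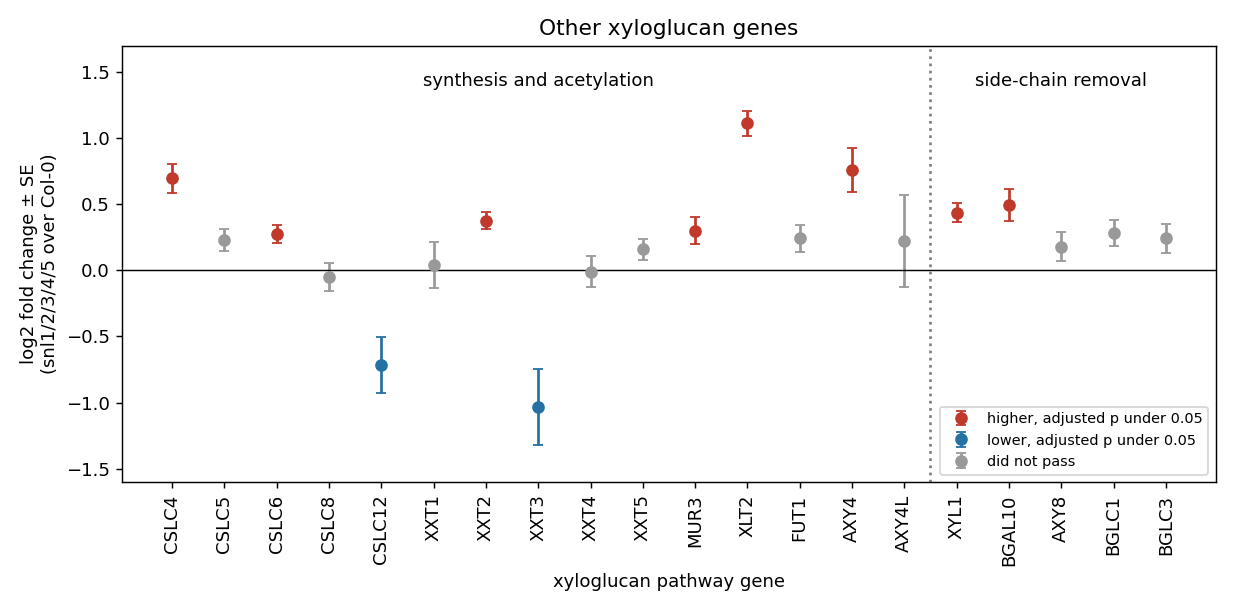
Log2 fold change (snl1/2/3/4/5 over Col-0) with its standard error for 20 other xyloglucan genes, synthesis and acetylation on the left and side-chain removal on the right of the dotted line. Red points passed as higher, blue points (CSLC12 and XXT3) as lower and grey points did not pass; XLT2 is the highest at 1.11.

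Among enzymes that trim xyloglucan side chains, XYL1, the alpha-xylosidase of the wall, had 492, 502 and 469 CPM in the mutant, against 371, 369 and 342 CPM in wild type. The groups were separate, at 1.35-fold and an adjusted p of 0.00284 (edgeR). BGAL10, a beta-galactosidase, had 56.0, 41.6 and 45.9 CPM in the mutant and 33.9, 30.6 and 37.25 CPM in wild type, and rose 1.41-fold (adjusted p = 0.01545, edgeR). Its adjusted p was 0.0550 and 0.0534 without wild-type replicates 1 and 2 (0.0041 to 0.0550 over the alternatives). The fucosidase gene AXY8 averaged 103 ± 16.4 CPM in the mutant and 90.8 ± 4.80 CPM in wild type and did not pass. The beta-glucosidase genes BGLC1 and BGLC3 had adjusted p of 0.05185 and 0.119 (edgeR).

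In the authors' deposited table of higher genes, 7 XTH members were listed, with log2 fold changes of 2.09 for XTH31, 1.647 for XTH19, 1.24 for XTH17, 1.215 for XTH4, 1.17 for XTH7, 1.145 for XTH8 and 1.13 for XTH32. The authors' deposited table of lower genes listed 0 members. In all, these tables hold 695 higher and 480 lower genes. Both deposited tables hold only genes with an absolute log2 fold change of at least 1.0, a size that XTH16, XTH9, XTH30 and XTH22 did not reach here.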

How the data were processed

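For each of the 6 libraries the authors deposited raw read counts by locus. The submitters' processing notes name TAIR10, cutadapt 1.4, TopHat, HTSeq and edgeR, without their roles and without saying how strand was treated. The replicates are called biological in the series description. The authors' deposited tables of higher and lower genes give a log2 fold change and an adjusted p-value; their 12 columns of values per sample were not used. Genes were kept with filterByExpr (minimum count 10, minimum total 15), scaled by TMM and tested for genotype alone by edgeR's quasi-likelihood functions (glmQLFit, glmQLFTest; version 4.0.16, R 4.3.3). The test was checked on simulated counts in which far fewer genes changed than were called here. No simulated library was made to stand apart, so the check does not cover these features of the data. A standard error is the log2 fold change divided by the square root of F. Names, exon lengths and coding sequences come from RefSeq TAIR10.1, which matched all 33 members; levels per length use its exons, which may differ from those counted. Copies were searched with BLAST+ 2.17.0 (95% identity over 100 bp). DESeq2 1.42.0 and limma 3.58.1 (voom) served as alternatives. Every member is accounted for; values in all libraries are given for called members and the 5 with the highest level per length, others being shown for comparison. Members and gene lists were chosen with earlier results of these data known.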

Additional observations from a re-analysis of the deposited data

How the results depend on the processing

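With the DESeq2 test 12 XTH members were higher, XTH20 and XTH24 among them, and 0 lower, and 7 xyloglucan genes were higher and 1 lower, as XTH22, MUR3 and CSLC12 lost their calls. No alternative was added to those planned. Leaving out each library in turn gave 9 to 10 higher and 0 to 3 lower XTH members, 5 to 9 higher and 0 to 2 lower xyloglucan genes, and 2290 to 3806 higher and 1757 to 3511 lower genes among all tested, the lowest counts without wild-type replicate 1. The log2 ratio of summed XTH levels was 0.58 and ran from 0.42 (without mutant replicate 3) to 0.67 (without mutant replicate 2). Over single members, 355 recomputed values kept their side of the threshold, 12 lost a call and 10 gained one, and 0 called values changed sign. Same-numbered libraries had correlations of 0.0136, 0.148 and -0.0561 in their deviations from the group means. Between libraries of different number the correlations ran from -0.131 to 0.126. With 3 libraries per group these values cannot settle whether the samples were paired. With a replicate block 10 members were higher and 1 lower, XTH30 lost its call (adjusted p = 0.0590), XTH20 gained one (0.0495), MUR3 lost its call (0.06835), and 3106 higher and 2768 lower genes were called in all.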
